A study of Ursus arctos with 5 samples.

Results

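Genes of the nuclear pore, nuclear transport, the nuclear lamina and the SUMO system were examined in gastrocnemius muscle of hibernating and active grizzly bears. Members were chosen by gene symbol alone. The rule used no measured value, but it was chosen with earlier results of these data known. It took nucleoporins (NUP), importins (KPNA, KPNB, IPO, TNPO), exportins (XPO), Ran and Ran-binding proteins (RAN, RANBP, RANGAP, RCC) and mRNA export factors (NXF, NXT). It also took lamins and inner nuclear membrane proteins (LMNA, LMNB, SUN, TMPO, EMD, LBR), SUMO proteins and SUMO proteases (SUMO, SENP). In counts by family, RANBP2 was placed with the nucleoporins and RANBP6 with the importins. The rule found 68 assembled transcripts of 41 genes, among 9093 transcripts of 4873 genes that carried a gene name and 26614 transcripts in all. RNA-seq had been made from biopsies of 2 captive bears, one called subadult and one adult in the study's own column heads, while the sample labels call the animals adult (10 years). Each bear was sampled in February, hibernating and without food, and in October, active and feeding, so each state had 2 libraries, 1 from either bear. Biopsies were taken under anaesthesia, with a lower dose in hibernation, and no genetic change or drug treatment was part of the design. The question put to these genes was whether the machinery between nucleus and cytoplasm was expressed differently in a muscle that is little used and unfed for months yet loses little mass.

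Nuclear pores are large ring-shaped protein assemblies that span both nuclear membranes, and traffic through them is carried by importins, which bring proteins in, and exportins, which take proteins and some RNAs out. Both depend on the small GTPase Ran, whose GTP-bound form is concentrated in the nucleus and sets the direction of loading and unloading. The lamina, a mesh of lamins under the inner membrane, holds the pores and, through SUN proteins, is tied to the cytoskeleton. This link carries mechanical load in muscle, and mutations of LMNA and EMD cause Emery-Dreifuss muscular dystrophy. SUMO proteins are small tags attached to other proteins, many of them nuclear, and SENP proteases cut them off.

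Members were transcripts of modest abundance, with a median mean level of 4.04 RPKM (reads scaled to transcript length and library size), against 4.29 over all named transcripts, and an interquartile range of 2.87 to 7.15. With each gene represented by its most-read transcript, the highest levels were those of IPO5 (35.5 RPKM, mean of 4 libraries), SUMO2 (28.1) and SUN1 (21.3), and the lowest was that of NUP85 (1.69). Nucleoporins lay low, with a median of 3.02 RPKM over 12 genes, and lamina and inner membrane genes had a median of 11.9 over 4. The lowest IPO5 library (31.5 RPKM) lay just above the highest SUMO2 library (31.0), while the ranges of SUMO2 and SUN1 overlapped, although SUMO2 was the higher in each library. The transcripts were assembled without a genome, and the files give them no genome position.

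**Figure D1:**
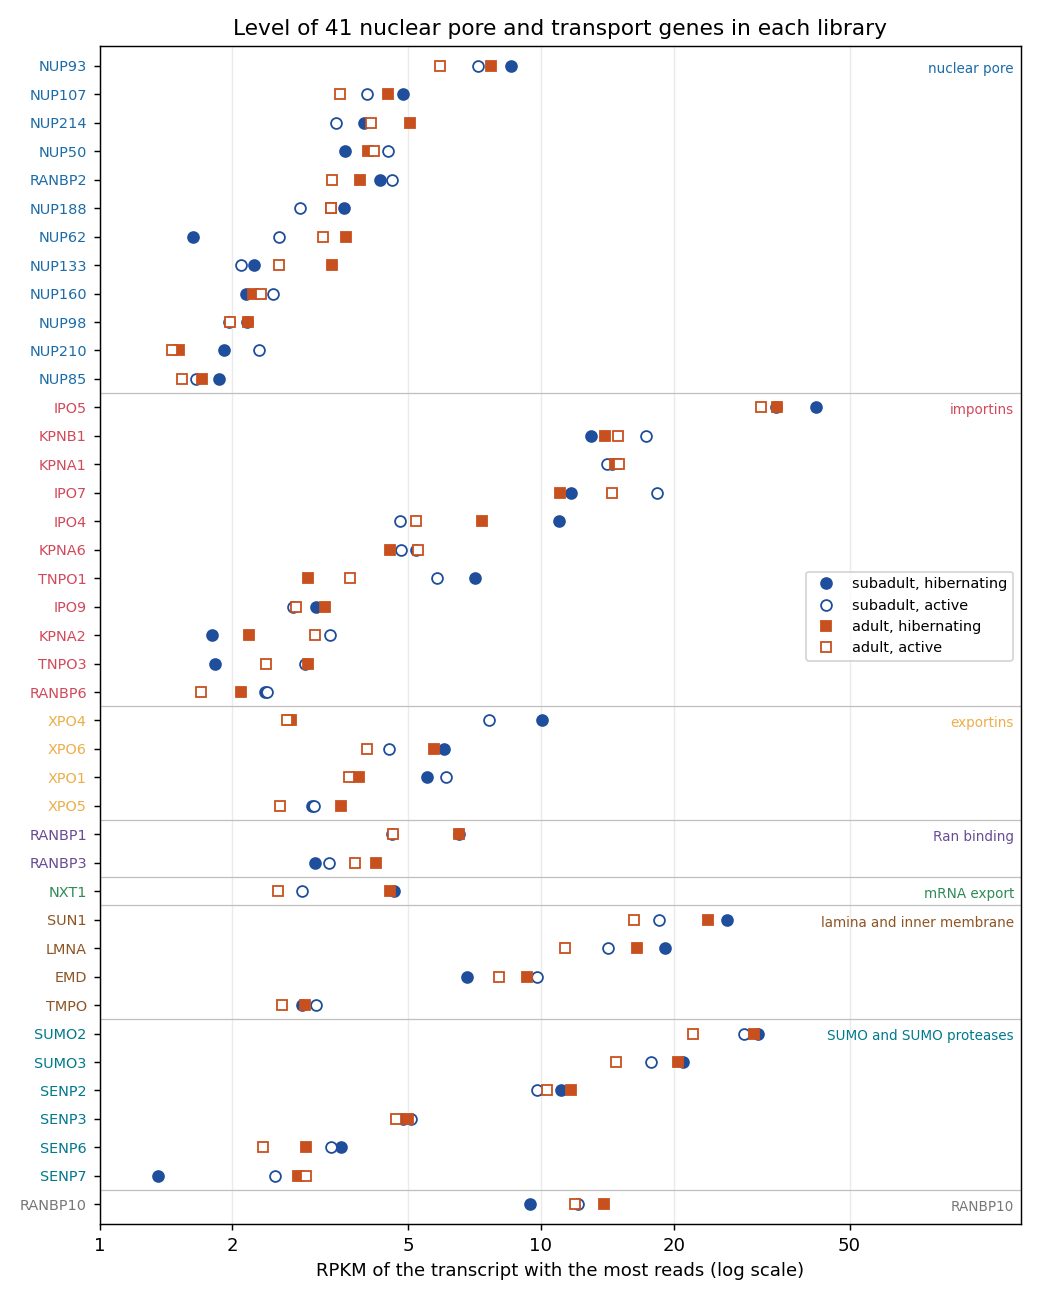
Level of each of the 41 genes in the 4 libraries, in RPKM on a log scale, by its most-read transcript. Each symbol is 1 library, circles the subadult, squares the adult, filled symbols hibernating and open symbols active. Genes are ordered by role and by mean level, from IPO5 at a mean of 35.5 RPKM down to NUP85 at 1.69.

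In hibernation the set as a whole lay close to its active level. The median log2 change (hibernating minus active, on the log2(RPKM + 0.5) scale used throughout) of the 68 transcripts was -0.01 for the subadult bear and 0.15 for the adult bear, against 0.12 and 0.15 over all named transcripts. No member transcript reached an adjusted p under 0.05 in limma's moderated test, where 0.00% of the 9093 named transcripts did, and the members' adjusted p ran from 0.546 to 0.999. An unadjusted p under 0.05 was found for 6 of the 68 members, against 9.08% of named transcripts. Of these, 4 were higher in hibernation (7.19% of named transcripts) and 2 lower (1.89%). After median-ratio scaling the balance turned, with 0 higher (3.10%) and 3 lower (3.79%), and upper-quartile scaling gave the same counts, KPNA2 and both IPO7 transcripts in each case. The 4 were transcripts of IPO4, NXT1, LMNA and SUN1, and the 2 were transcripts of KPNA2 and IPO7. No member reached 0.8 in a score rebuilt after NOISeq, the method of the study, against 3.61% of named transcripts. This score is the share of differences between bears of 1 state that a change between states exceeds in both ratio and size, and the highest among the members was 0.777, that of IPO4. In bulk muscle, fewer cells that express a gene and less of its RNA per cell cannot be told apart.

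The 2 states did not overlap, with both hibernating libraries above both active ones, for 21 of the 68 transcripts (34.6% of named transcripts), and the reverse held for 8 (8.80% of named transcripts). After median-ratio scaling, which sets the typical transcript equal in each library and lowers the median log2 change of named transcripts from 0.13 to -0.01, these counts became 11 (19.0% of named transcripts) and 17 (18.1%). By gene, 15 of 41 lay higher without overlap (35.8% of named genes) and 5 lower (8.11%). Of the 15, IPO4, LMNA, NXT1, RANBP1, SUMO3, SUN1 and XPO6 stayed apart after both median-ratio and upper-quartile scaling, and IPO5, IPO9, NUP107, NUP188, NUP85, NUP93, SENP2 and SUMO2 did not. The 5 lower genes, IPO7, KPNA2, KPNB1, NUP160 and NUP50, stayed apart under both scalings, and EMD, KPNA1, KPNA6, NUP98, SENP3 and TMPO joined them. Some of these scaled log2 changes were near zero, as for EMD in the adult (-0.0076) and KPNA6 in the subadult (-0.0042) after median-ratio scaling. After median-ratio scaling the counts by gene were thus 7 higher (20.4% of named genes) and 11 lower (17.1%). The bears gave opposite signs for 16 of 41 genes (35.2% of named genes), 19 were higher in both bears (48.7%) and 6 lower in both (16.1%). After median-ratio scaling, 10 genes were higher in both bears (30.4% of named genes) and 18 lower in both (31.2%).

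**Figure D2:**
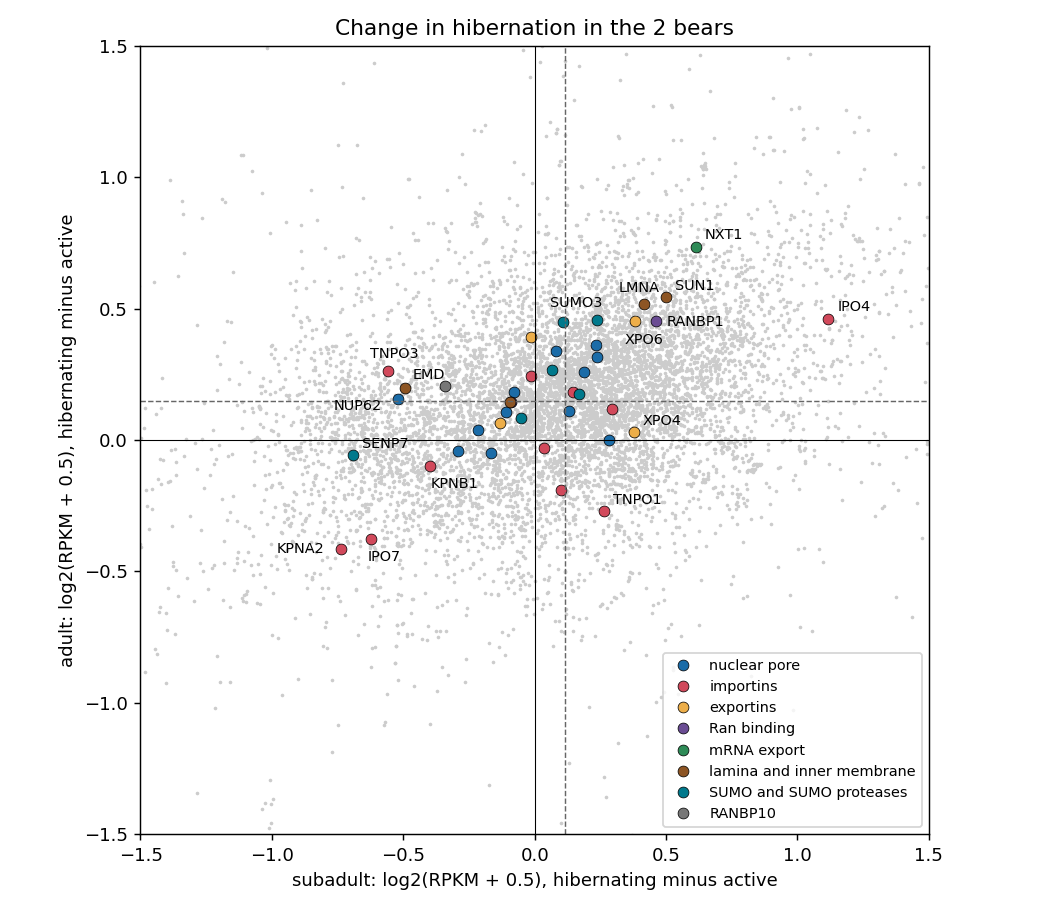
Log2 change in hibernation of the adult (vertical axis) against that of the subadult (horizontal axis), on the log2(RPKM + 0.5) scale. Coloured points are the 41 genes by role, grey points all named transcripts (213 lie outside the axes), and dashed lines the medians of named transcripts, 0.12 and 0.15. IPO4, NXT1, SUN1 and LMNA lie at the upper right, and KPNA2 and IPO7 farthest to the lower left.

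Nucleoporins, with RANBP2 placed among them, showed no common direction. Of 12 genes, 6 were higher in both bears (48.7% of named genes), 2 lower in both (16.1%) and 4 opposite (35.2%), and the median log2 change was 0.09. After median-ratio scaling these counts were 3 (30.4% of named genes), 6 (31.2%) and 3, and the median was -0.05. None had an unadjusted p under 0.05. The 2 states lay apart for NUP93, NUP107, NUP188 and NUP85 on the higher side (35.8% of named genes). On the lower side they lay apart for NUP160 and NUP50 (8.11%). The adult's log2 change of NUP188 was 0.0011, within its counting error of 0.09. After median-ratio scaling none of the higher genes stayed apart (20.4% of named genes). NUP160 and NUP50 did, and NUP98 joined them (17.1%).

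NUP93 (isotig16837), a scaffold protein of the inner ring and the most abundant nucleoporin of the set, stood at 8.56 and 7.72 RPKM in the hibernating subadult and adult and at 7.21 and 5.89 in the active ones. The states did not overlap, and the log2 change was 0.30 (limma standard error 0.22, adjusted p = 0.690). NUP107 (isotig21518) belongs to the outer ring, the Y-shaped complex that coats the pore. It measured 4.86 and 4.49 RPKM in hibernation and 4.04 and 3.51 in activity, with a log2 change of 0.28 (limma standard error 0.22, adjusted p = 0.699). Its partner in that complex, NUP160 (isotig20164), was slightly lower in hibernation, with 2.14 and 2.22 RPKM against 2.47 and 2.32, a log2 change of -0.11 (limma standard error 0.20, adjusted p = 0.840). Members of the same complex thus lay on either side of zero, and neither change reached 2 standard errors. NUP50 (isotig22178), a mobile protein of the nuclear basket that helps importin alpha release its cargo, measured 3.59 and 4.06 RPKM in hibernation and 4.51 and 4.19 in activity. Its log2 change was -0.29 for the subadult and -0.04 for the adult.

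NUP214 (isotig20689), a docking site for export complexes on the cytoplasmic side, measured 3.97 and 5.05 RPKM in hibernation and 3.43 and 4.13 in activity, higher in each bear but overlapping between them. NUP62 (isotig22094), the FG-repeat protein of the central channel, separated the bears more than the states. It stood at 1.63 RPKM in the hibernating subadult, against 2.55, 3.62 and 3.20 in the active subadult, the hibernating adult and the active adult. The subadult's log2 change was therefore -0.52 and the adult's 0.16. NUP98 (isotig09573), made as one precursor with NUP96, had log2 changes of -0.11 and 0.11 by its most-read transcript, at 1.96 and 2.16 RPKM in hibernation and 2.15 and 1.98 in activity. NUP210 (isotig32666), an integral membrane protein of the pore that is induced when muscle cells differentiate, was near the bottom of the range with 1.91 and 1.51 RPKM in hibernation and 2.297 and 1.46 in activity, from 47 to 87 reads per library.

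Importins, with RANBP6 placed among them, held the largest differences in both directions. Of 11 genes, 3 were higher in both bears, 3 lower in both and 5 opposite, beside the 48.7%, 16.1% and 35.2% of all named genes, and their median log2 change was -0.0043. After median-ratio scaling they numbered 1, 5 and 5, beside 30.4% higher and 31.2% lower of named genes, and the median was -0.16. The 3 lower genes, KPNA2, IPO7 and KPNB1, and the 3 higher ones, IPO4, IPO5 and IPO9, each had states that did not overlap as deposited.

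KPNA2 (isotig19715) is an importin alpha, the adaptor that reads the classical nuclear localization signal. Its level was 1.80 and 2.18 RPKM in the hibernating subadult and adult and 3.33 and 3.08 in the active ones. Both hibernating libraries were lower, and the log2 change was -0.57 (limma standard error 0.21, unadjusted p = 0.0374, adjusted p = 0.549). KPNA1 (isotig20744), at 14.5 and 14.7 RPKM in hibernation and 14.1 and 15.0 in activity, is another importin alpha and had log2 changes of 0.04 and -0.03, with a mean of -0.16 after median-ratio scaling. KPNA6 measured 5.20 and 4.55 RPKM in hibernation and 4.82 and 5.27 in activity. After median-ratio scaling both KPNA1 and KPNA6 were lower in both bears, with states apart. The scaled log2 change of KPNA6 in the subadult was -0.0042, within its counting error of 0.09.

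IPO7, an importin beta family member that carries ribosomal proteins and histone H1, had 2 transcripts that gave nearly the same picture. These transcripts stand for 1 gene, and how reads that fit both were counted is not stated. The more read one, isotig07339 of 6184 bases, measured 11.72 and 11.02 RPKM in hibernation and 18.3 and 14.5 in activity. That is a log2 change of -0.62 for the subadult and -0.38 for the adult, on average -0.50 (limma standard error 0.22, adjusted p = 0.577). The other, isotig07341 of 4962 bases, had a log2 change of -0.56 (limma standard error 0.23, unadjusted p = 0.0496 and adjusted p = 0.549). KPNB1 (isotig20668), importin beta 1, the carrier that partners importin alpha, measured 13.0 and 13.9 RPKM in hibernation and 17.3 and 15.0 in activity, with log2 changes of -0.40 for the subadult and -0.10 for the adult. The counting error of the adult's change was 0.03, and the 2 bears thus differed by more than counting allows.

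IPO4 (isotig28458), which imports histones among other cargo, had the largest positive difference of the set. It stood at 10.97 and 7.37 RPKM in hibernation and at 4.79 and 5.21 in activity, and the states did not overlap. The log2 change was 1.12 for the subadult and 0.46 for the adult, on average 0.79 or 1.73-fold (limma standard error 0.26, unadjusted p = 0.0248, adjusted p = 0.546). Its assembled transcript was 1010 bases long and held 235 to 555 reads per library. IPO5 (isotig15669), the most abundant gene of the set and a relative that also carries histones and ribosomal proteins, measured 42.0 and 34.3 RPKM in hibernation and 34.1 and 31.5 in activity. Its states were barely apart, its log2 change was 0.21 (limma standard error 0.22, adjusted p = 0.755), and after median-ratio scaling it was 0.04.

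Among exportins, XPO6 was the gene with states apart. XPO6 exports actin bound to profilin, and its most-read transcript (isotig22236) measured 6.04 and 5.72 RPKM in hibernation and 4.52 and 4.04 in activity. The log2 change was 0.42 (limma standard error 0.22, adjusted p = 0.604). Its shorter transcript of 1038 bases did not repeat this in the subadult, where the log2 change was -0.11, but stood at 0.68 in the adult. XPO1 (CRM1, isotig14149), the general carrier of proteins with a leucine-rich export signal, measured 5.53 and 3.86 RPKM in hibernation and 6.10 and 3.67 in activity, a log2 change of -0.03 (limma standard error 0.32, adjusted p = 0.977).

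XPO4, an exportin for the translation factor eIF5A and for SMAD3, differed between the animals rather than between the states. Its longest transcript, isotig09592 of 7975 bases, measured 10.0 and 7.61 RPKM in the hibernating and active subadult and 2.72 and 2.66 in the adult. All 5 of its transcripts were higher in the subadult in both states, by 3.63-fold to 5.80-fold in hibernation and 2.85-fold to 3.30-fold in activity. They were also the only member transcripts that were at least 2-fold higher in the subadult in both states, which 0.858% of named transcripts were, and since they share sequence they stand for 1 gene. The log2 change in hibernation was 0.38 for the subadult and 0.03 for the adult by the longest transcript. The standard error of the mean was 0.67 in the unpaired limma fit, which takes in the level difference between the bears. With the bear as a block it was 0.21. The summed level of the slow-fibre markers MYH7 and MYL3, 2 of 6 on the list, also differed between the bears. It was higher in the subadult (5552 and 4972 RPKM in hibernation and activity) than in the adult (2187 and 2761). That of the fast-fibre markers MYH1, MYH2 and TNNC2, 3 of 6, was lower in the subadult (7093 and 9438) than in the adult (13438 and 13642). The part of fibre type in the XPO4 difference was not tested.

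**Figure D3:**
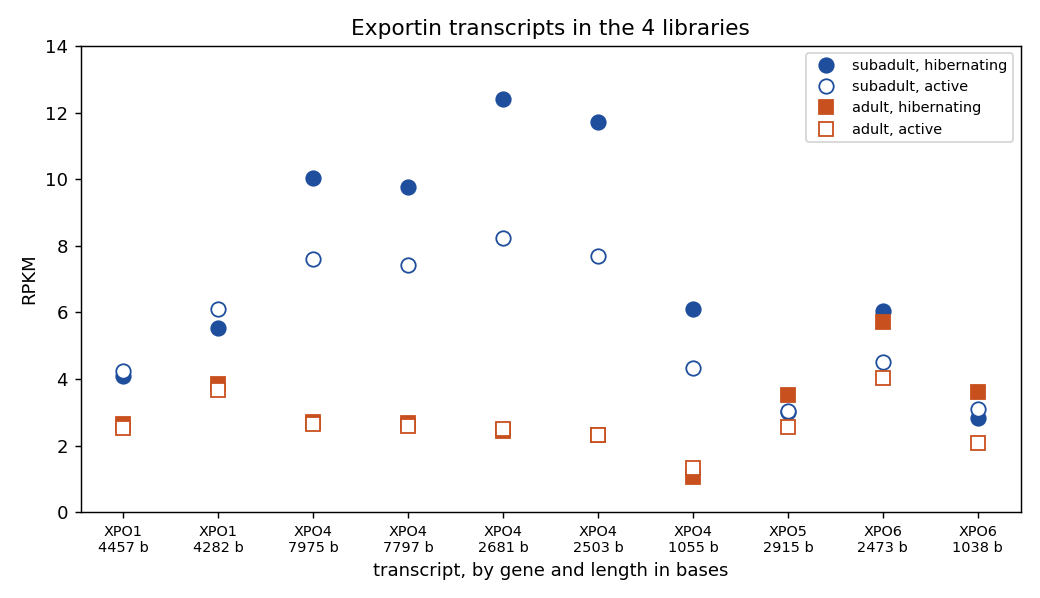
RPKM of the 10 exportin transcripts in the 4 libraries, labelled by gene and length in bases (b). Circles are the subadult and squares the adult, filled when hibernating and open when active. The 5 XPO4 transcripts separate the bears, from 4.33 to 12.4 RPKM for the subadult and 1.05 to 2.72 for the adult, while the XPO6 transcript of 2473 bases separates the states.

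RANBP1 (isotig08397), a cofactor that helps to strip RanGTP from carriers in the cytoplasm, gave almost the same values in both bears. It measured 6.53 and 6.50 RPKM in hibernation and 4.61 and 4.61 in activity, log2 changes of 0.46 and 0.45. The mean log2 change had a standard error of 0.21 and an adjusted p of 0.583 from limma, which pools the spread over all transcripts. The counting error of each change was 0.12, from 216 to 369 reads per library. RANBP3, a cofactor of XPO1, had 4 transcripts between 2.78 and 4.24 RPKM that were all lower in the subadult's hibernating library and higher in the adult's. RANBP10 (isotig23358), which shares a Ran-binding name but is known as a scaffold and microtubule-binding protein, measured 9.47 and 13.9 RPKM in hibernation and 12.1 and 11.9 in activity, again opposite in the bears. After median-ratio scaling RANBP3, by its most-read transcript, and RANBP10 were lower in both bears. The scaled log2 changes of the adult were -0.05 and -0.0030, within counting errors of 0.09 and 0.06. RAN itself had no listed transcript. Nor had RANGAP1 and RCC1, the GTPase-activating protein and the exchange factor that set up the Ran gradient.

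NXT1 pairs with NXF1 to carry mature mRNA through the pore. Its transcript (isotig20191, 936 bases) stood at 4.65 and 4.56 RPKM in hibernation and at 2.87 and 2.54 in activity. Each bear had at least 1.62 times its active level in hibernation, and the log2 change was 0.67 (limma standard error 0.22, unadjusted p = 0.0218, adjusted p = 0.546). With 106 to 231 reads per library, the counting errors of the changes were 0.16 and 0.17. NXT1 was, with an LMNA transcript, 1 of 2 member transcripts at least 1.5-fold higher in both bears, where 4.88% of named transcripts were, and none was as much lower in both (1.42%). After median-ratio scaling it was 0 higher (1.91%) and 3 lower (3.18%), the latter being KPNA2 and both IPO7 transcripts.

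Lamina and inner membrane genes held a pair, LMNA and SUN1, that was higher in hibernation in both bears, and a pair, EMD and TMPO, that was opposite in the bears as deposited. After median-ratio scaling EMD and TMPO were lower in both bears, without overlap of the states. The scaled log2 changes of the adult were -0.0076 for EMD and -0.04 for TMPO, within counting errors of 0.07 and 0.10. SUN1 (isotig15821), which spans the inner membrane and grips the nesprins that reach the cytoskeleton, measured 26.4 and 23.9 RPKM in hibernation and 18.5 and 16.2 in activity. The log2 change was 0.50 for the subadult and 0.54 for the adult, on average 0.52 or 1.44-fold (limma standard error 0.21, unadjusted p = 0.0476, adjusted p = 0.549). It rested on 3169 to 5782 reads per library, more than those of IPO4, NXT1 or LMNA. Its second transcript, of 1235 bases, also lay apart as deposited, at 10.6 and 7.76 RPKM against 7.11 and 6.38. After median-ratio and upper-quartile scaling the states of that transcript overlapped.

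LMNA encodes lamins A and C. Its most-read transcript (isotig13341) measured 19.1 and 16.5 RPKM in hibernation and 14.2 and 11.4 in activity, a log2 change of 0.47 (limma standard error 0.23, adjusted p = 0.587). A transcript of 602 bases (isotig13343) gave 31.6 and 26.0 RPKM in hibernation and 19.6 and 16.4 in activity, with log2 changes of 0.68 and 0.65 (unadjusted p = 0.0264 and adjusted p = 0.546 from limma). The third, of 1063 bases, measured 4.81 and 4.84 RPKM in hibernation and 4.92 and 3.61 in activity, so it overlapped. EMD (emerin, isotig16865), an inner membrane protein that binds the lamina, measured 6.81 and 9.27 RPKM in hibernation and 9.77 and 8.01 in activity. Its log2 change was -0.49 for the subadult and 0.20 for the adult, and its other transcript had the same signs. TMPO, which encodes the LAP2 proteins, measured 2.87 and 2.92 RPKM in hibernation and 3.09 and 2.59 in activity.

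Of the markers of other cells, CD68, MYOD1 and 2 of the 4 matrix markers found were also higher in both bears in hibernation. So were 48.7% of named genes. The other 2 matrix markers were opposite in the bears. The leukocyte marker CD68, 1 of 3 markers found, stood at 6.41 and 7.12 RPKM in hibernation and 3.94 and 3.28 in activity, and the satellite cell marker MYOD1, 1 of 3 found, at 4.73 and 4.92 against 1.79 and 2.42. The summed level of 4 of 6 matrix markers was 271 and 225 RPKM in hibernation and 317 and 148 in activity, opposite in the bears. PECAM1 of endothelium, 1 of 4, measured 10.8 and 11.6 RPKM in hibernation and 13.0 and 7.53 in activity. The other markers of these lists and those of blood and Schwann cells had no transcript listed under their names. The part of other cells in the lamina values was not tested.

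Of 6 SUMO system genes, 4 were higher in hibernation in both bears in the deposited values (48.7% of named genes). In the same values 1 was lower in both (16.1%) and 1 opposite (35.2%). After median-ratio scaling this became 1 (30.4% of named genes), 2 (31.2%) and 3, and the median log2 change went from 0.17 to 0.02. SUMO2 and SUMO3, nearly identical tags that form chains, were the most abundant. SUMO2 (isotig17420) measured 31.0 and 30.4 RPKM in hibernation and 28.8 and 22.1 in activity, and SUMO3 (isotig17421) 21.0 and 20.5 against 17.7 and 14.8. The log2 changes were 0.28 (limma standard error 0.23, adjusted p = 0.699) and 0.35 (limma standard error 0.21, adjusted p = 0.642). How reads that fit both were counted is not stated, so their separate levels are uncertain. Among the SUMO proteases, SENP2 measured 11.1 and 11.7 RPKM in hibernation and 9.81 and 10.3 in activity, SENP6 had log2 changes of 0.07 and 0.27, and SENP3 was opposite in the bears at -0.05 and 0.09 but lower in both after median-ratio scaling. SENP7 stood at 1.36 RPKM in the hibernating subadult and at 2.50, 2.81 and 2.94 in the other libraries, on 46 to 103 reads.

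For 15 genes with several transcripts, 42 in all, the signs of the mean change were shared within 12 genes and mixed in 3, NUP98, NUP214 and XPO1. NUP98 had transcripts on either side of zero. Its transcript of 2939 bases was higher in hibernation, at 3.10 and 2.28 RPKM against 1.85 and 1.76. Its transcript of 2474 bases instead measured 2.42 RPKM in the hibernating subadult and 4.69, 5.99 and 6.23 in the other libraries. NUP214 showed the same contrast between a transcript of 1043 bases, with log2 changes of 0.38 and 0.59, and one of 939 bases, with -0.70 and -0.08. In 4 member transcripts, of NUP98, NUP214, NUP62 and SENP7, the hibernating subadult was at least 1.4-fold below each other library, against 9.02% of named transcripts.

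**Figure D4:**
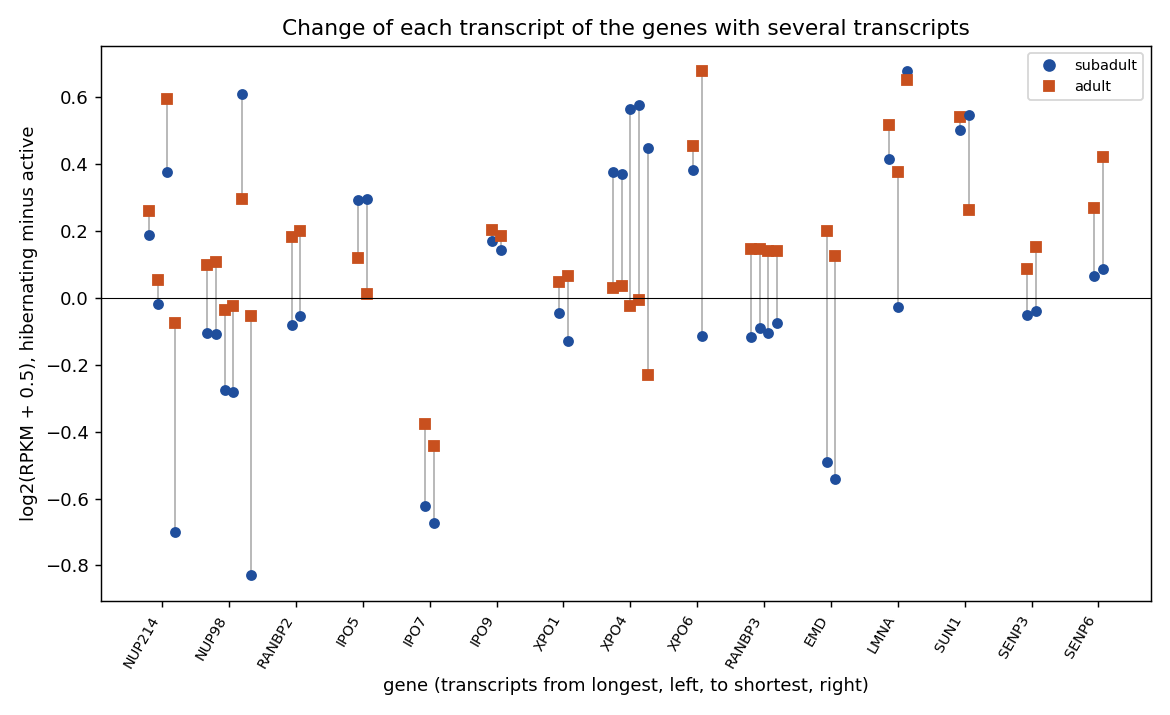
Log2 change in hibernation on the log2(RPKM + 0.5) scale of each transcript of the 15 genes with several transcripts, circles the subadult and squares the adult, with a line joining the bears. Within a gene, transcripts run from longest to shortest. The IPO7 transcripts lie below zero and both SUN1 transcripts above it in both bears, while NUP98 spreads from -0.83 to 0.61 in the subadult.

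A list of 35 further genes of these pathways, not caught by the symbol rule, gave 19 genes with a named transcript. Of these, 12 were higher in hibernation in both bears (48.7% of named genes), none lower in both (16.1%) and 7 opposite (35.2%). The states were apart on the higher side for 7 (35.8%). After median-ratio scaling 5 were higher in both bears (30.4% of named genes) and 7 lower (31.2%). The states were then apart for 3 on the higher side (20.4%), ALYREF, PIAS3 and TMEM43. On the lower side they were apart for 5 (17.1%), BANF1, DDX39B, PHAX, TOR1AIP1 and TOR1AIP2. For DDX39B this held only for its most-read transcript, of 2726 bases. Its other transcripts overlapped after that scaling, and that of 1733 bases was higher in both bears, by 0.02 and 0.06. For TOR1AIP1 the transcript of 3703 bases overlapped, and those of 2409 and 2364 bases were apart. The median log2 change of the 19 genes was 0.13, or -0.0045 after that scaling. None of the 19 had an adjusted p under 0.05 in limma. An unadjusted p under 0.05 was found for 2, PIAS3 and TMEM43, against 9.50% of named genes. TMEM43 (LUMA), an inner membrane partner of emerin and lamins, measured 13.7 and 11.9 RPKM in hibernation and 7.03 and 7.23 in activity, a log2 change of 0.80 (adjusted p = 0.541 from limma). PIAS3, a SUMO ligase, measured 4.46 and 3.76 RPKM in hibernation and 2.09 and 2.06 in activity by its most-read transcript. That is a log2 change of 0.83 (adjusted p = 0.541 from limma). Its transcripts of 3298 and 3026 bases had smaller log2 changes, 0.40 and 0.41. The states of TMEM43 and of PIAS3 did not overlap. CSE1L, the exportin that returns importin alpha to the cytoplasm, measured 16.2 and 16.2 RPKM in hibernation and 15.9 and 12.9 in activity. BANF1, a chromatin-binding partner of emerin, measured 36.3 and 53.0 RPKM in hibernation and 73.4 and 51.6 in activity, so the subadult alone was far lower. TPR, the filament of the nuclear basket, stayed between 1.077 and 1.396 RPKM.

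The libraries held between 44.7 and 54.2 aligned megareads as recovered from the steps of the RPKM values, and the least read member value rested on 46 reads. The median counting error of a member's log2 change was 0.09 in each bear. The median difference between the bears in that change was 0.25, against 0.31 over all named transcripts. The difference exceeded 2 counting errors in 32 of 68 transcripts, a count that was not made for all named transcripts. The muscle fibre markers RYR1 and TTN, 2 of 7 on the list, were found, and the summed level was 1106 and 760 RPKM in hibernation and 1090 and 1205 in activity. The other markers of that list, among them ACTA1, CKM and DES, had no transcript listed under their names. The fat marker LPL, 1 of 6, stood at 63.4 and 120 RPKM in the hibernating and active subadult and at 19.8 and 18.8 in the adult.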

How the data were processed

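Per the labels and methods, the authors assembled bear muscle transcripts de novo (Newbler 2.3 and SOAPdenovo), named them by BLAST against human proteins of Ensembl 66 (e-value up to 1e-10), aligned single-end reads with SOAP2 (up to 2 mismatches) and deposited RPKM values per transcript for 2 bears in 2 states. Every listed value was at least 1 RPKM. Whether the single-end libraries were nuclease-normalized and how reads fitting several transcripts were counted are not stated. GEO has 1 single-end sample per state, holding both bears. The pooled and paired-end samples, used for assembly, were not analysed here. Bear symbols came from the RefSeq annotation: of 78 that match the rule, 40 had no listed transcript.

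Here log2(RPKM + 0.5) was tested with limma (version 3.58.1, R 4.3.3; trended prior variance, no block, Benjamini-Hochberg over 9093 named transcripts). With 1 library per bear and state, p-values rest on the spread between 2 animals, unpaired as in the study. An exact permutation test of 2 against 2 libraries cannot give p below 0.333. A NOISeq-like score used 53228 differences between bears of 1 state. Tables were made with Python 3.11.15, pandas 2.3.3 and numpy 2.4.6 and plots with matplotlib 3.10.9. The scripts were tested on simulated data. Depth was recovered from the 500 lowest values of transcripts up to 700 bases, of which 92.4% to 99.4% came out whole within 0.1 read. Counting errors cover sampling of reads only, and reads are not independent molecules. Genes were represented by the transcript with the most reads. Genes described with all 4 values were the 8 largest changes in each direction among those with states apart (5 lower ones existed), the highest of each role and textbook members. Other members are given singly where counts were small or a comparison within a family was made, chosen with their values seen. The members and lists were chosen with earlier results of these data known. The same animals pair the libraries, and the deviations of the bears correlated at Pearson r = 0.356 across named transcripts, 0.880 across the 68 members and 0.624 across the 63 without XPO4, a description across transcripts of 2 pairs. Alternatives were pseudocounts of 0.1 and 1, 2 other scalings, a filter at a mean of 5 RPKM, a prior without trend, a block for the bear, a score of 0.9, other choices of transcript and leaving out a library or a bear.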

Additional observations from a re-analysis of the deposited data

How the results depend on the processing

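The count of member transcripts with an adjusted p under 0.05 from limma was 0 under both pseudocounts, both scalings, the 5 RPKM filter, the prior without trend, the replicate block and without each library. The block, which pairs the libraries by bear, gave 8 member transcripts with an unadjusted limma p under 0.05 in place of 6. Over the 9093 named transcripts it gave 1229 in place of 826. The count past the score was 0 under both scalings, the filter and a threshold of 0.9. The block changed no call, and the lowest adjusted p of a named gene in the settings with a test was 0.173, without the hibernating library of the adult. The scaling moved the summaries. The median log2 change of 68 transcripts was -0.047 after median-ratio and -0.082 after upper-quartile scaling, and that of 41 genes -0.019 and -0.050. With a mean of at least 5 RPKM, which left 24 transcripts, both medians were 0.24 (0.17 over named transcripts so filtered). After median-ratio scaling 11 transcripts had both hibernating libraries above both active ones (19.0% of named transcripts) and 17 below (18.1%). After upper-quartile scaling 10 lay above (17.1%) and 19 below (20.5%). Under the filter 12 of 24 lay above and 3 below. Shares of named transcripts were not computed for the filtered counts, nor for the leave-out counts that follow. Leaving out a library or a bear, the medians ran from -0.029 to 0.16 for transcripts and from 0.013 to 0.17 for genes, and the counts apart from 24 to 37 above and from 13 to 23 below, where fewer libraries have to be apart. Of 25 named genes 17 kept their sign in the settings run for them, 13 for every gene and the filter for 15 genes. KPNA1 turned to -0.16 and -0.19 under the scalings, and XPO1 to 0.0017 by its longest transcript. Leave-out ranges crossed zero for EMD (-0.49 to 0.20), KPNA1 (-0.039 to 0.044), NUP210 (-0.35 to 0.17), NUP62 (-0.66 to 0.30), NUP98 (-0.11 to 0.11), RANBP10 (-0.34 to 0.21), XPO1 (-0.36 to 0.30) and XPO4 (-0.65 to 1.06). The cause was not tested.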
